A study of Homo sapiens and Mus musculus with 24 samples.

Results

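The 55 genes described here are components and targets of the Wnt pathway, taken by symbol from the 58051 genes in the Caco-2 count tables. They comprise 3 genes for ligands and their secretion, 14 for receptors and receptor turnover, 10 for Dishevelled proteins and the β-catenin destruction complex, 11 for TCF factors, TLE corepressors and coactivators, 6 for feedback and secreted inhibitors, 8 targets and stem cell genes, and 3 other regulators. All 55 were found in the human tables, and 54 had enough counts to be tested, since DKK4 held at most 7 counts in any library. In the mouse tables of 29307 genes, 50 of the 55 were matched by name and 45 were tested, while Fzd1, Fzd2, Fzd7, Fzd8 and Fzd9 were not analysed here.

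RNA-seq was performed on 4 lines of Caco-2, a human colorectal carcinoma line with enterocyte features, and on purified colonic epithelial cells of mice. The study asked what loss of DNMT3A, a de novo DNA methyltransferase, changes in the intestinal epithelium, and whether its long (DNMT3A1) or short (DNMT3A2) isoform restores it. The Caco-2 groups were unedited WT cells (4 libraries), ΔDNMT3A cells made by CRISPR-Cas9 (4 libraries), and ΔDNMT3A cells with a TY1-tagged DNMT3A1 (3 libraries) or DNMT3A2 (4 libraries) transgene driven by a CMV promoter, inserted by piggyBac transposition and kept by puromycin selection. Each edited line was expanded from diluted single cells, so the effect of the edit or transgene and the history of that clone cannot be told apart, and replicate 3 of DNMT3A1 was not analysed here. The mouse groups were 4 Dnmt3a fl/fl animals, which carry a conditional allele with exons 13 to 17 between loxP sites, and 4 Dnmt3a ΔIEC animals, in which Villin-Cre, expressed in epithelial cells along the intestine, deletes these exons. The mice were 12 weeks old and labelled as at steady state. Nothing in the labels says that the Caco-2 libraries of a line came from separate cultures, so the tests between lines measure the spread between these libraries only.

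In canonical Wnt signaling, a secreted Wnt ligand binds a Frizzled receptor and its LRP5 or LRP6 partner, which recruits a Dishevelled protein and halts the destruction complex of APC, AXIN, GSK3 and casein kinase 1. β-catenin then escapes degradation, enters the nucleus and joins TCF and LEF factors, where it replaces TLE corepressors at target genes. At the base of the intestinal crypt the pathway maintains the LGR5-positive stem cells, and several of its targets, such as AXIN2, NKD1, NOTUM, RNF43 and ZNRF3, feed back to limit it. Caco-2 cells, as most colorectal cancers, carry a truncated APC, so their β-catenin is active without a ligand.

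The Caco-2 libraries held between 22104408 and 42161299 counted reads and the mouse libraries between 16943626 and 24921248. The reads carry no molecular identifiers. Levels are given as CPM, the counts of a gene relative to the TMM-scaled total of its library, and as FPKM, which also divides by gene length, where different genes are compared. A gene is said to have risen or fallen where its p in the quasi-likelihood test of edgeR was under 0.05 after Benjamini-Hochberg adjustment across every gene tested, and SE is the standard error of a log2 fold change. The level of DNMT3A (mean ± SD) was 65.4 ± 2.48 CPM for the 4 WT, 20.7 ± 1.27 for the 4 ΔDNMT3A and 37.7 ± 1.13 for the 3 DNMT3A1 libraries. Those labelled DNMT3A2 were at 21.8 ± 1.36 CPM and overlapped ΔDNMT3A (log2 fold change 0.07, SE 0.0574, adjusted p = 0.272, edgeR). Gene counts do not separate the isoforms or the transgene from the edited gene, so these libraries are named by their label throughout. The paper reports that both isoforms were detected as protein in their lines, by immunoblot and by immunofluorescence. Of the Caco-2 marker lists, 9 epithelial genes summed to between 8620 and 13000 CPM and 4 immune genes to at most 1.58 CPM in any library. The 4 stromal genes summed to between 26.7 and 42.7 CPM.

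In ΔDNMT3A against WT, 46 of the 54 tested Wnt pathway genes passed the threshold, 15 higher and 31 lower. Over all genes tested the corresponding shares were 62.2% past the threshold, 31.2% higher and 31.0% lower. The median log2 fold change of the Wnt pathway genes was -0.19, against -0.01 over all 16654 genes, and 5 of the 54 (all genes: 1418 of 16654) moved by at least 1 on the log2 scale. By role, without a test between roles, 10 fell and 1 rose of the 14 receptor and turnover genes, 4 fell and 1 rose of the 5 tested feedback and secreted inhibitors, 5 fell and 2 rose of the 8 targets, and 7 fell and 4 rose of the 11 TCF factors, corepressors and coactivators. Of the 10 Dishevelled and destruction complex genes 4 fell and 3 rose, of the 3 ligand and secretion genes 1 fell and 2 rose, and of the 3 other regulators 2 rose and none fell.

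Against ΔDNMT3A, 43 of the 54 genes passed the threshold in DNMT3A1, with 26 higher and 17 lower, and 44 passed it in the libraries labelled DNMT3A2, with 34 higher and 10 lower. The background over all genes was 60.7% past the threshold in DNMT3A1 (30.4% higher, 30.3% lower) and 67.9% in the libraries labelled DNMT3A2 (33.8% higher, 34.1% lower). Median log2 fold changes were 0.12 and 0.34 for the Wnt pathway genes, and 0.01 and 0.00 for all genes. Because these comparisons share the ΔDNMT3A libraries with the first, their values are set side by side below and no overlap between them was counted.

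Against WT, 40 genes differed in DNMT3A1 (20 higher, 20 lower) and 45 in the libraries labelled DNMT3A2 (31 higher, 14 lower). The shares over all genes were 65.3% in DNMT3A1 (32.6% higher, 32.7% lower) and 68.7% in the libraries labelled DNMT3A2 (34.3% higher, 34.4% lower). When the isoform lines were compared directly, 37 of the 54 genes differed, 12 higher and 25 lower in DNMT3A1 (all genes: 68.5%, with 34.5% higher and 33.9% lower). The heat map of log2 fold changes shows these comparisons for each gene by role.

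**Figure D1:**
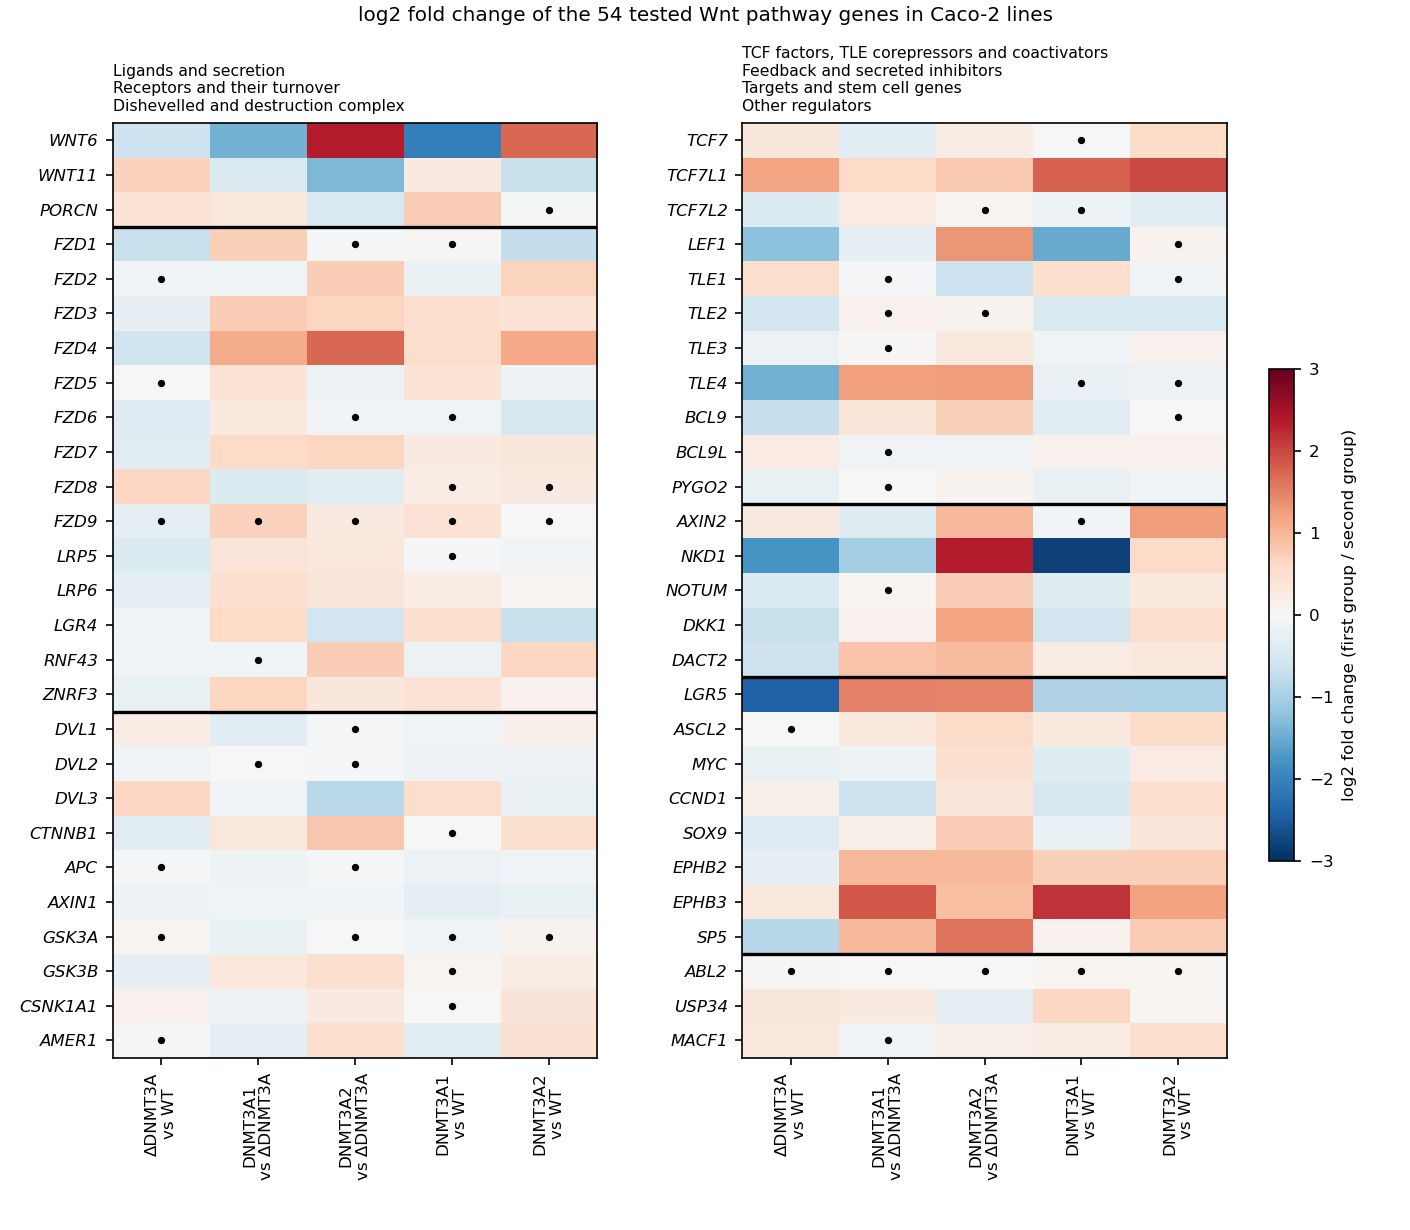
Heat map of the log2 fold changes of the 54 tested Wnt pathway genes (rows, by role, separated by lines in the order of the panel titles) in 5 comparisons of Caco-2 lines (columns), from blue (lower in the first group) to red (higher). Black points mark changes that did not pass an adjusted p of 0.05, and LGR5 (-2.42), NKD1 (-1.78), TLE4 (-1.43) and LEF1 (-1.24) stand out in ΔDNMT3A against WT.

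Among the ligand and secretion genes, WNT11, a ligand best known for signaling without β-catenin, and PORCN, the acyltransferase that lipidates Wnt proteins, were higher in ΔDNMT3A, and WNT6, a further ligand, was lower. WNT11 (chromosome 11, 76186325 to 76210736, GRCh38) was at 22.5, 21.5, 22.6 and 24.9 CPM in the WT libraries and at 36.1, 38.1, 38.4 and 34.7 in ΔDNMT3A. All ΔDNMT3A libraries thus lay above all WT libraries, with a log2 fold change of 0.69 (SE 0.0479, adjusted p = 7.42e-12, edgeR). It fell in both isoform lines against ΔDNMT3A, by 0.44 on the log2 scale in DNMT3A1 (27.1, 25.6 and 28 CPM, adjusted p = 3.32e-07, edgeR) and by 1.36 in the libraries labelled DNMT3A2 (14.8, 14.1, 13.8 and 14.5 CPM, adjusted p = 5.53e-17, edgeR). The libraries labelled DNMT3A2 were then below every WT library, while those of DNMT3A1 were above them.

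WNT6 (chromosome 2, 218859821 to 218874233) was a low transcript whose levels parted most between the isoform lines. It was at 1.11, 0.989, 1.22 and 1.24 CPM in WT, at 0.718, 1.04, 0.807 and 0.365 in ΔDNMT3A, at 0.294, 0.264 and 0.253 in DNMT3A1 (7 to 9 counts) and at 4.39, 3.48, 3.50 and 3.74 in the libraries labelled DNMT3A2. WT and ΔDNMT3A overlapped, and their difference (log2 fold change -0.63, adjusted p = 0.0211, edgeR) was not past the threshold without ΔDNMT3A replicate 4 (-0.42, adjusted p = 0.0832, edgeR) or without WT replicate 4 (adjusted p = 0.0508). The 3 DNMT3A1 libraries lay below and the 4 labelled DNMT3A2 above all libraries of the other lines. Directly compared, WNT6 was 3.78 lower on the log2 scale in DNMT3A1 (SE 0.218, adjusted p = 3.9e-14, edgeR). PORCN was at 2.43, 2.53, 1.96 and 2.27 CPM in WT and at 3.30, 3.32, 2.72 and 2.72 in ΔDNMT3A, which did not overlap (log2 fold change 0.41, SE 0.12, adjusted p = 0.00453, edgeR). In DNMT3A1 it was higher still, at 3.75, 3.8 and 3.74 CPM, but that difference from ΔDNMT3A (0.32, adjusted p = 0.0276, edgeR) was lost without any single DNMT3A1 library or without ΔDNMT3A replicate 3 or 4 (adjusted p between 0.056 and 0.0762). In the libraries labelled DNMT3A2 it was at 2.33, 2.17, 2.16 and 2.16 CPM, within the WT range.

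Of the 9 Frizzled receptors, 5 fell in ΔDNMT3A (FZD1, FZD3, FZD4, FZD6 and FZD7), FZD8 rose, and FZD2, FZD5 and FZD9 did not pass the threshold. Both co-receptors fell, LRP5 by 0.40 and LRP6 by 0.30 on the log2 scale, as did LGR4, an R-spondin receptor, and the ubiquitin ligases RNF43 and ZNRF3, which remove Frizzled proteins from the cell surface. Per unit of length, FZD7 was the most abundant Frizzled transcript in each line, at 25.3 ± 0.835 FPKM in WT (SD, n = 4) and 20.3 ± 0.569 in ΔDNMT3A (n = 4), followed in WT by FZD5 (15.3 ± 0.193), FZD4 (12.8 ± 0.488), FZD2 (11.8 ± 0.895) and FZD6 (9.90 ± 0.479). FZD4 and FZD2 differed in WT by less than the sum of their SDs. FZD3 was at 1.69 ± 0.0505 FPKM, and FZD1, FZD8 and FZD9 were below 1 FPKM in WT.

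FZD1 (chromosome 7, 91264364 to 91271326) was at 6.58, 6.45, 7.32 and 6.79 CPM in WT and at 4.50, 3.44, 4.97 and 4.04 in ΔDNMT3A, with no overlap and a log2 fold change of -0.67 (SE 0.0965, adjusted p = 1.78e-06, edgeR). It was at 6.95, 7.11 and 6.61 CPM in DNMT3A1, where it overlapped WT, and at 4.07, 4.11, 4.17 and 3.96 CPM in the libraries labelled DNMT3A2, where it overlapped ΔDNMT3A. FZD8 moved the other way, from 2.16, 2.27, 2.76 and 2.61 CPM in WT to 3.95, 4.15, 3.50 and 3.28 in ΔDNMT3A (log2 fold change 0.61, SE 0.114, adjusted p = 5.3e-05, edgeR), and was between 2.56 and 3.25 CPM in the isoform lines.

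FZD4 (chromosome 11, 86945679 to 86955391), also a receptor of the non-Wnt ligand norrin, had the largest change of the receptor and turnover genes in each isoform line against ΔDNMT3A. Its level was 91.7, 91.2, 96.1 and 98.7 CPM in WT and 60.2, 61.2, 61.8 and 66.8 in ΔDNMT3A. In DNMT3A1 it was 135, 133 and 133 CPM, and in the libraries labelled DNMT3A2 it was 204, 190, 222 and 204 CPM. No 2 of the 4 lines overlapped, and the order was ΔDNMT3A, WT, DNMT3A1 and the libraries labelled DNMT3A2. The log2 fold changes against ΔDNMT3A were 1.11 in DNMT3A1 (SE 0.037, adjusted p = 2.31e-15, edgeR) and 1.72 in the libraries labelled DNMT3A2 (SE 0.0376, adjusted p = 3.37e-21, edgeR), so that FZD4 rose above WT by 0.53 and 1.13.

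Some receptors moved in opposite directions in the isoform lines. FZD2 was higher in the libraries labelled DNMT3A2 than in ΔDNMT3A (0.74) and lower in DNMT3A1 (-0.14, a call lost without replicate 1 or 2 of either group, with adjusted p between 0.0705 and 0.112 in edgeR), and the difference between the isoform lines was -0.88 (adjusted p = 3.19e-14, edgeR). FZD5 and LGR4 went the opposite way. LGR4 was at 70.2, 69.5, 68.5 and 70.7 CPM in WT, 62.7, 61.5, 64.1 and 70.1 in ΔDNMT3A, 92.5, 95.2 and 101 in DNMT3A1, and 42, 44.1, 44.6 and 43.6 in the libraries labelled DNMT3A2, a difference of 1.15 between the isoform lines (SE 0.0377, adjusted p = 3.43e-19, edgeR). Its small fall in ΔDNMT3A (-0.10) was not past the threshold without ΔDNMT3A replicate 1 or replicate 2 (adjusted p = 0.0764 and 0.0898, edgeR). LRP5, LRP6, FZD3 and FZD7 were higher in both isoform lines than in ΔDNMT3A, with log2 fold changes between 0.31 and 0.74.

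The 2 turnover ligases did not move together. RNF43 was at 84.0, 83.5, 87.5 and 89.6 CPM in WT and at 81.0, 78.4, 81.2 and 79.1 in ΔDNMT3A, a fall of 0.10 on the log2 scale (SE 0.0303, adjusted p = 0.00588, edgeR). It was 72.3, 77.6 and 75.4 CPM in DNMT3A1 (log2 fold change against ΔDNMT3A -0.08, adjusted p = 0.0717, edgeR) but 132, 125, 134 and 138 CPM in the libraries labelled DNMT3A2 (0.73, adjusted p = 1.46e-16, edgeR). No 2 lines overlapped, and the libraries labelled DNMT3A2 were the highest. ZNRF3 was at 63.8, 65.1, 65.4 and 64.2 CPM in WT, 53.5, 55.6, 55.8 and 57.2 in ΔDNMT3A, 85.3, 85.0 and 86.1 in DNMT3A1, and 67.8, 68.0, 71.8 and 70.7 in the libraries labelled DNMT3A2. Here DNMT3A1 was the highest line, with a log2 fold change of 0.63 against ΔDNMT3A (SE 0.0376, adjusted p = 1.66e-11, edgeR), compared with 0.33 in the libraries labelled DNMT3A2 (adjusted p = 3.93e-09). The plot of receptor levels gives the mean of each line.

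**Figure D2:**
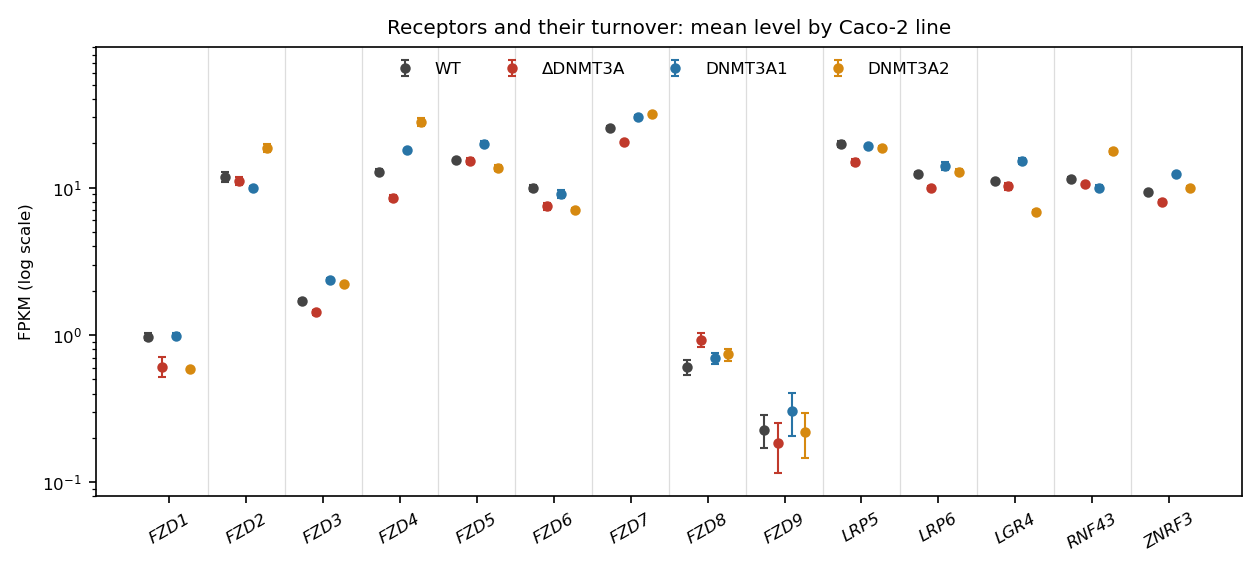
Mean level of the 14 receptor and turnover genes in the 4 Caco-2 lines, in FPKM on a logarithmic axis, with bars for the SD between libraries (n = 4, and n = 3 for DNMT3A1). FZD4 ranged from 8.46 FPKM in ΔDNMT3A to 27.8 in the libraries labelled DNMT3A2, and FZD1, FZD8 and FZD9 stayed below 1 FPKM in every line.

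Dishevelled and destruction complex genes changed less. Of these 10 genes 3 rose and 4 fell in ΔDNMT3A, with log2 fold changes between -0.34 and 0.62 and a median of -0.04. CTNNB1, which encodes β-catenin (chromosome 3, 41194837 to 41260096), was at 221, 230, 217 and 230 CPM in WT and at 176, 177, 186 and 168 in ΔDNMT3A, which did not overlap (log2 fold change -0.34, SE 0.0301, adjusted p = 7.34e-10, edgeR). In DNMT3A1 it was 222, 212 and 219 CPM, overlapping WT (-0.02 against WT, adjusted p = 0.632, edgeR). In the libraries labelled DNMT3A2 it was 309, 301, 310 and 323 CPM, above all other libraries (0.82 against ΔDNMT3A, SE 0.0274, adjusted p = 9.72e-18, edgeR, and 0.48 against WT).

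APC, the scaffold of the destruction complex, was at 46.6, 51.9, 46.4 and 50.7 CPM in WT and at 44.7, 49.9, 43.2 and 51.2 in ΔDNMT3A, overlapping and not past the threshold (log2 fold change -0.04, SE 0.0487, adjusted p = 0.468, edgeR). Its levels were 43.9, 41.9 and 41.3 CPM in DNMT3A1 and 46.4, 42.4, 45.2 and 46.9 CPM in the libraries labelled DNMT3A2. Both were slightly lower than in WT. The log2 fold change against WT was -0.18 in DNMT3A1, without overlap (adjusted p = 0.00157, edgeR). In the libraries labelled DNMT3A2 it was -0.10, with overlap (adjusted p = 0.0273, edgeR). Against ΔDNMT3A the log2 fold changes were -0.15 in DNMT3A1 (adjusted p = 0.0329, edgeR), a call lost without replicate 2 or replicate 4 of either group (adjusted p between 0.0628 and 0.111), and -0.06 in the libraries labelled DNMT3A2 (adjusted p = 0.294). The partner scaffold AXIN1 was lower in all 3 edited lines than in WT, by 0.14 to 0.27 on the log2 scale. The kinase genes GSK3B and CSNK1A1 fell and rose in ΔDNMT3A (-0.25 and 0.13), both were highest in the libraries labelled DNMT3A2 (0.22 and 0.40 above WT), and GSK3A did not pass the threshold (0.09).

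The Dishevelled genes differed from one another. DVL3 (chromosome 3, 184155388 to 184173610) was at 57.8, 61.3, 61.1 and 65.6 CPM in WT and at 91.9, 99.4, 95.6 and 89.4 in ΔDNMT3A (log2 fold change 0.62, SE 0.0368, adjusted p = 3.75e-13, edgeR). It was 89.0, 86.8 and 84.3 CPM in DNMT3A1 and 54.7, 49.9, 54.8 and 51.1 CPM in the libraries labelled DNMT3A2, below all WT libraries and 0.84 lower on the log2 scale than ΔDNMT3A (adjusted p = 1.03e-15, edgeR). DVL1 was at 55.1, 52.2, 54.4 and 54.8 CPM in WT, 62.5, 64.6, 65.2 and 58.4 in ΔDNMT3A and 51.2, 46.6 and 49.3 in DNMT3A1, where it fell by 0.34 against ΔDNMT3A (SE 0.0468, adjusted p = 2.67e-06, edgeR). DVL2 fell by 0.14 in ΔDNMT3A and did not differ past the threshold between ΔDNMT3A and either isoform line (-0.02 and -0.03). AMER1, a membrane partner of APC, parted the isoform lines, at -0.30 in DNMT3A1 and 0.50 in the libraries labelled DNMT3A2 against ΔDNMT3A.

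Position on the chromosome was measured beside these values, as the median log2 fold change of the 50 tested genes nearest to each gene. DVL3 and EPHB3 lie within the same stretch of chromosome 3, EPHB3 from 184561784 to 184582409. In ΔDNMT3A against WT the median of the neighbours was 0.57 for DVL3 (itself 0.62) and 0.56 for EPHB3 (itself 0.31), and in the libraries labelled DNMT3A2 against ΔDNMT3A it was -0.79 for DVL3 (itself -0.84) and -0.63 for EPHB3 (itself 0.89). For USP34 on chromosome 2 (61187463 to 61470769) it was 0.54 and -0.24, with 0.34 and -0.28 for the gene. Neighbours of CTNNB1 had a median of -0.29 in ΔDNMT3A against WT but of -0.05 in the libraries labelled DNMT3A2 against ΔDNMT3A, where CTNNB1 rose by 0.82. Around FZD1 the median was -0.42 in ΔDNMT3A, and around LGR4 it was 0.69 in DNMT3A1 against the libraries labelled DNMT3A2. Some rises in DNMT3A1 against WT were close to those of the neighbours. These medians were 0.51 for FZD4 (itself 0.53), 0.40 for ZNRF3 (itself 0.43), 0.43 for LGR4 (itself 0.49) and 0.40 for ASCL2 (itself 0.30). In the libraries labelled DNMT3A2 against WT, the neighbours of FZD4 had a median of -0.01, while FZD4 rose by 1.13. The genes with the strongest falls had neighbours near 0, with 0.07 around LGR5, -0.14 around NKD1, 0.04 around TLE4 and -0.04 around LEF1. Over the 54 genes, 27 had the sign of their neighbours in ΔDNMT3A against WT. Against ΔDNMT3A it was 35 in DNMT3A1 and 26 in the libraries labelled DNMT3A2. Against WT it was 36 in DNMT3A1 and 34 in the libraries labelled DNMT3A2, and between the isoform lines 36. The part of the neighbourhood in any single change was not tested.

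All 11 genes for TCF factors, TLE corepressors and coactivators passed the threshold in ΔDNMT3A, 4 higher and 7 lower. LEF1 (chromosome 4, 108047545 to 108168956), itself both a partner and a target of β-catenin, was at 17.8, 18, 16.8 and 17.4 CPM in WT and at 7.66, 7.66, 6.82 and 7.26 in ΔDNMT3A. It was 6, 5.72 and 6.36 CPM in DNMT3A1 and 19.6, 19.4, 18.8 and 16.6 CPM in the libraries labelled DNMT3A2. The first pair of lines did not overlap (log2 fold change -1.24, SE 0.0632, adjusted p = 2.24e-14, edgeR), DNMT3A1 lay below ΔDNMT3A (-0.28, SE 0.0834, adjusted p = 0.0077, edgeR), and the libraries labelled DNMT3A2 overlapped WT (0.10 against WT, adjusted p = 0.138). Without DNMT3A2 replicate 4 this last difference was 0.15 and passed the threshold (adjusted p = 0.0171, edgeR). Between the isoform lines LEF1 differed by -1.61 (adjusted p = 1.19e-15, edgeR).

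TLE4 (chromosome 9, 79571773 to 79726882), a corepressor that holds TCF targets silent, had the largest fall of the group. Its level went from 4.54, 4.03, 4.43 and 3.88 CPM in WT to 1.48, 1.6, 1.68 and 1.46 in ΔDNMT3A, a log2 fold change of -1.43 (SE 0.115, adjusted p = 1.06e-10, edgeR). In DNMT3A1 it was 3.75, 3.61 and 3.46 CPM (1.22 against ΔDNMT3A, adjusted p = 1.38e-07, edgeR) and in the libraries labelled DNMT3A2 3.08, 3.48, 4.24 and 3.84 CPM (1.25, adjusted p = 1.28e-08, edgeR). Both isoform lines were above all ΔDNMT3A libraries, and neither differed from WT past the threshold (-0.20 and -0.18). TLE1, also on chromosome 9, moved the other way in ΔDNMT3A, from a mean of 17.2 to 24.6 CPM (0.53), was at 23.5 CPM in DNMT3A1 and at 15.8 CPM in the libraries labelled DNMT3A2. TLE2 fell by 0.56 and did not pass the threshold against ΔDNMT3A in either isoform line (0.12 and 0.10).

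TCF7L2, the main TCF factor of the normal intestinal epithelium, was at 9.10, 9.67, 9.18 and 9.32 CPM in WT and at 6.56, 7.09, 6.72 and 7.76 in ΔDNMT3A (log2 fold change -0.40, SE 0.0732, adjusted p = 4.39e-05, edgeR). It was 8.35, 8.58 and 7.90 CPM in DNMT3A1 (0.25 against ΔDNMT3A, adjusted p = 0.0142, edgeR, and 0.0546 or 0.0557 without ΔDNMT3A replicate 1 or DNMT3A1 replicate 2) and 7.71, 8.18, 6.72 and 7.28 CPM in the libraries labelled DNMT3A2, which overlapped ΔDNMT3A (0.09, adjusted p = 0.357). Unlike it, TCF7 and TCF7L1, a factor known mostly as a repressor, rose in ΔDNMT3A by 0.33 and 1.18. TCF7L1 rose further in both isoform lines, from a mean of 0.632 CPM in WT through 1.40 in ΔDNMT3A to 2.07 in DNMT3A1 and 2.43 in the libraries labelled DNMT3A2. BCL9, a β-catenin coactivator, fell from 10.2 ± 0.899 CPM (SD, n = 4) in WT to 6.28 ± 0.322 in ΔDNMT3A (n = 4) and was back at 10.2 ± 0.827 in the libraries labelled DNMT3A2 (n = 4), whereas its relative BCL9L rose by 0.24 in ΔDNMT3A.

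Feedback and secreted inhibitors fell in ΔDNMT3A except AXIN2, and all 5 tested rose in the libraries labelled DNMT3A2 against ΔDNMT3A (log2 fold changes from 0.73 to 2.37). NKD1 (chromosome 16, 50548330 to 50649249), an inhibitor of Dishevelled that β-catenin induces, was at 98.9, 100, 104 and 106 CPM in WT and at 28.7, 27.8, 31.7 and 30.7 in ΔDNMT3A. In DNMT3A1 it was lower still, at 13.1, 14.5 and 15.7 CPM, and in the libraries labelled DNMT3A2 it was 159, 145, 156 and 149 CPM. No 2 lines overlapped. The log2 fold change was -1.78 in ΔDNMT3A against WT (SE 0.0389, adjusted p = 2.05e-21, edgeR), -1.03 in DNMT3A1 against ΔDNMT3A (SE 0.0636, adjusted p = 3.29e-11, edgeR) and 2.37 in the libraries labelled DNMT3A2 against ΔDNMT3A (SE 0.0382, adjusted p = 1.59e-23, edgeR).

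AXIN2 (chromosome 17, 65528563 to 65561647), the negative regulator often read as a reporter of β-catenin activity, did not follow NKD1 in ΔDNMT3A. It was at 39.5, 37.8, 38.2 and 41.3 CPM in WT and at 47.6, 47.9, 47.4 and 45.8 in ΔDNMT3A, a rise of 0.27 on the log2 scale without overlap (SE 0.0359, adjusted p = 4.33e-07, edgeR). DNMT3A1 had 35.4, 37.1 and 36.5 CPM, below all ΔDNMT3A libraries (-0.37, SE 0.0448, adjusted p = 6.25e-07, edgeR). The libraries labelled DNMT3A2 had 92.5, 92.4, 93.8 and 92.3 CPM, above all others (0.98 against ΔDNMT3A, SE 0.0291, adjusted p = 1.02e-18, edgeR, and 1.25 against WT).

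DKK1 (chromosome 10, 52314296 to 52318042), a secreted antagonist that binds LRP5 and LRP6, was the most abundant of the 55 transcripts per unit of length, with 406 ± 7.5 FPKM in WT and 254 ± 7.91 in ΔDNMT3A (SD, n = 4 each). Its libraries were at 902, 918, 884 and 883 CPM in WT, 562, 584, 553 and 542 in ΔDNMT3A, 604, 582 and 628 in DNMT3A1, and 1260, 1240, 1260 and 1300 in the libraries labelled DNMT3A2. It fell by 0.67 in ΔDNMT3A (SE 0.0274, adjusted p = 2.87e-16, edgeR), DNMT3A1 overlapped ΔDNMT3A (0.12, adjusted p = 0.00301, edgeR), and the libraries labelled DNMT3A2 lay above WT (0.51). NOTUM, which removes the lipid from Wnt proteins, showed the same order of lines at a lower level, with means of 8.37, 6.20, 6.43 and 10.2 CPM in WT, ΔDNMT3A, DNMT3A1 and the libraries labelled DNMT3A2. DACT2, a Dishevelled-binding inhibitor, fell by 0.62 in ΔDNMT3A and rose in both isoform lines (0.84 and 0.93). DKK4 stayed between 1 and 7 counts per library and is given no fold change.

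Of the 8 targets and stem cell genes, 5 fell and 2 rose in ΔDNMT3A, and ASCL2 did not pass the threshold. LGR5 (chromosome 12, 71439770 to 71586310), the R-spondin receptor that marks crypt base stem cells, had the largest fall of all 54 genes. It went from 35.5, 37.1, 31.9 and 35.9 CPM in WT to 6.30, 7.03, 6.59 and 6.23 in ΔDNMT3A, a log2 fold change of -2.42 (SE 0.0613, adjusted p = 2.84e-20, edgeR). DNMT3A1, at 18.8, 19.2 and 17.4 CPM, and the libraries labelled DNMT3A2, at 17.7, 17.3, 19.1 and 19.1 CPM, overlapped each other between the WT and ΔDNMT3A levels. Against ΔDNMT3A they were higher by 1.51 (SE 0.0685, adjusted p = 2.96e-13, edgeR) and 1.49 (SE 0.0643, adjusted p = 1.15e-15, edgeR), and against WT lower by 0.90 and 0.92. The difference between the isoform lines was 0.01 (SE 0.0592, adjusted p = 0.885, edgeR).

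SP5, a transcription factor and direct target of β-catenin, was at 50.6, 50.6, 51.4 and 49 CPM in WT and at 27.9, 24.8, 29.6 and 27.8 in ΔDNMT3A (log2 fold change -0.87, SE 0.0454, adjusted p = 3.92e-14, edgeR). DNMT3A1, at 54.5, 53.3 and 53.2 CPM, was close to WT (0.12, adjusted p = 0.0132, a call lost without DNMT3A1 replicate 1 or WT replicate 4), and the libraries labelled DNMT3A2, at 85.6, 83.2, 87.5 and 84.3 CPM, exceeded it (1.63 against ΔDNMT3A, SE 0.0407, adjusted p = 3.84e-20, edgeR). Of the members with a promoter window, SP5 and DKK1 are also those whose windows held the letters that TCF and LEF factors prefer. RefSeq promoter windows of GRCh38.p14, from 250 bases before to 50 after the start of a gene, matched 38 of the 55 genes and were searched on both strands for CTTTGAT (reverse complement ATCAAAG) and CTTTGAA (reverse complement TTCAAAG). Of the 38 windows 2 (5.26%) held a match, against 6.98% of all 27305 windows. Only 2 feedback and secreted inhibitors and 3 targets and stem cell genes had a window. The others of these roles, such as AXIN2, NKD1, LGR5 and MYC, were not searched. A match is a description of letters and not a site, and no methylation was analysed here.
The 250 upstream bases of both genes are shown 5′ to 3′ on the strand of the gene, with matches in capitals. The bases shown for SP5 lie at chr2:170715087-170715336 on the plus strand. Their matches have a first base 148, 109 and 84 bases before the start. The bases shown for DKK1 lie at chr10:52314031-52314280 on the plus strand, with a match 95 bases before the start.
SP5: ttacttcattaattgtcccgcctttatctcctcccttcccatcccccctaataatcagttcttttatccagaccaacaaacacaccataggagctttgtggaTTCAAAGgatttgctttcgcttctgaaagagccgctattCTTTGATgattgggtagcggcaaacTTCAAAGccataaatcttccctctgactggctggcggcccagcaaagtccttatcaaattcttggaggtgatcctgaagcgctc
DKK1: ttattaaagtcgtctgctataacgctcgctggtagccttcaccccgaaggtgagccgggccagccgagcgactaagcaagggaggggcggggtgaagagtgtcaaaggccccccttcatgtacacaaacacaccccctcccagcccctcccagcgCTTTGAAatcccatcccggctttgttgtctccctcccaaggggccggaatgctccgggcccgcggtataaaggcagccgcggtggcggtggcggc

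The windows of the 38 genes were rich in CpG dinucleotides, the substrate of DNMT3A, with a median of 30 per window and a GC content of 69.2%, against 14 and 58.3% over all windows. The 2 windows above were below that median of the list, with 17 CpG for SP5 and 20 for DKK1.

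Among the remaining targets, MYC, SOX9 and EPHB2 fell and CCND1 and EPHB3 rose in ΔDNMT3A. ASCL2, the stem cell transcription factor, was at 16.6, 16.2, 17.4 and 17.1 CPM in WT and at 17.1, 15.2, 17.6 and 16.1 in ΔDNMT3A, overlapping (log2 fold change -0.02, SE 0.0583, adjusted p = 0.768, edgeR). It was higher in DNMT3A1 (19.5, 20.2 and 21.4 CPM, 0.32 against ΔDNMT3A, adjusted p = 0.000101, edgeR) and in the libraries labelled DNMT3A2 (25.7, 22.9, 26.3 and 23.7 CPM, 0.58, adjusted p = 5.21e-09, edgeR). MYC, the growth regulator, was at 145, 143, 147 and 143 CPM in WT, 128, 124, 122 and 116 in ΔDNMT3A, 109, 110 and 111 in DNMT3A1, and 174, 166, 170 and 175 in the libraries labelled DNMT3A2. These lines did not overlap, and the log2 fold changes were -0.23 in ΔDNMT3A against WT (SE 0.0299, adjusted p = 3.28e-07, edgeR), -0.14 in DNMT3A1 (adjusted p = 0.00124) and 0.49 in the libraries labelled DNMT3A2 against ΔDNMT3A (adjusted p = 1.7e-13).

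CCND1, which encodes cyclin D1, was at 336, 323, 329 and 337 CPM in WT, 365, 376, 374 and 347 in ΔDNMT3A, 237, 238 and 228 in DNMT3A1, and 468, 458, 472 and 465 in the libraries labelled DNMT3A2. It rose slightly in ΔDNMT3A (0.15, SE 0.0277, adjusted p = 5.71e-05, edgeR), fell in DNMT3A1 against ΔDNMT3A (-0.63, SE 0.034, adjusted p = 4.26e-12, edgeR) and rose in the libraries labelled DNMT3A2 (0.35, SE 0.024, adjusted p = 5.71e-12, edgeR). As for MYC and NKD1, DNMT3A1 was the lowest and the group labelled DNMT3A2 the highest of the 4 lines. SOX9, a transcription factor of crypt progenitors, fell by 0.38 in ΔDNMT3A and was highest in the libraries labelled DNMT3A2 (0.35 above WT).

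The Ephrin receptors EPHB2 and EPHB3, which position cells along the crypt, were highest in the isoform lines. EPHB3 was at 6.85, 6.04, 6.48 and 8.19 CPM in WT and at 7.59, 8.72, 9.28 and 8.85 in ΔDNMT3A, with overlap (log2 fold change 0.31, SE 0.0879, adjusted p = 0.00353, edgeR). In DNMT3A1 it was 31.5, 29.5 and 31.0 CPM (1.85 against ΔDNMT3A, SE 0.0615, adjusted p = 2.22e-15, edgeR), and in the libraries labelled DNMT3A2 15.3, 15.3, 17.1 and 15.6 CPM (0.89, SE 0.069, adjusted p = 5.9e-11, edgeR). All isoform libraries lay above all WT and ΔDNMT3A libraries. EPHB2 was at 78.3 CPM in DNMT3A1 and 78.4 in the libraries labelled DNMT3A2, compared with 48.4 in WT and 40.2 in ΔDNMT3A.

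**Figure D3:**
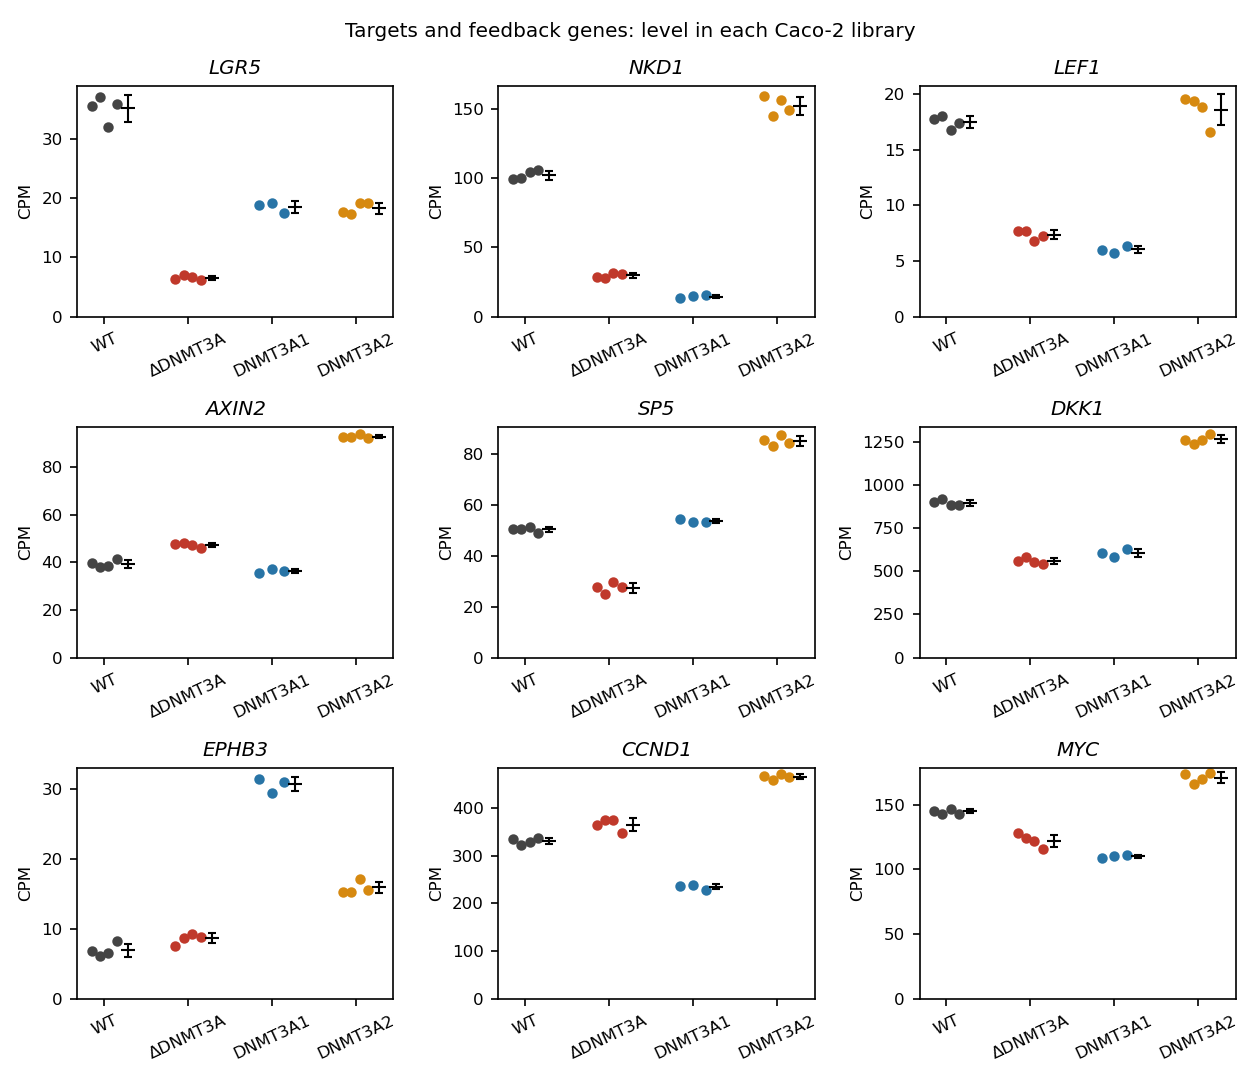
Level in CPM (vertical axes, from 0) of 9 targets and feedback genes in each Caco-2 library, with points for libraries by line and black bars for mean and SD (n = 4, and n = 3 for DNMT3A1). LGR5 was lowest in ΔDNMT3A (6.23 to 7.03 CPM), whereas NKD1 (13.1 to 15.7) and LEF1 (5.72 to 6.36) were lowest in DNMT3A1 and EPHB3 was highest there (29.5 to 31.5).

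As groups, the targets and stem cell genes had median log2 fold changes of -0.25 in ΔDNMT3A against WT, 0.64 in DNMT3A1 against ΔDNMT3A and 0.81 in the libraries labelled DNMT3A2 against ΔDNMT3A, where all 8 rose. The corresponding medians of the feedback and secreted inhibitors were -0.62, 0.06 and 0.98. Summed markers of enterocyte differentiation and of division also differed between some of these lines. The 6 differentiation genes summed to between 60.8 and 67.8 CPM in WT, 84.8 and 104 in ΔDNMT3A, 98.7 and 128 in DNMT3A1, and 27.3 and 29.6 in the libraries labelled DNMT3A2, where FABP2 was at 0, and 5 of the 6 passed the threshold in ΔDNMT3A against WT. The 4 division genes summed to between 1540 and 1620 CPM in WT, 1400 and 1460 in ΔDNMT3A, 1390 and 1430 in DNMT3A1, and 1450 and 1500 in the libraries labelled DNMT3A2, and 3 of the 4 passed. Over all genes tested 62.2% passed in that comparison, and a sum can rest on its most abundant gene. The part of these markers in the Wnt pathway changes was not tested.

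Of the 3 other regulators, USP34, a deubiquitinase of AXIN, was at 238, 242, 228 and 241 CPM in WT and at 299, 305, 276 and 312 in ΔDNMT3A, without overlap (log2 fold change 0.34, SE 0.0325, adjusted p = 2.84e-09, edgeR). It was 354, 377 and 342 CPM in DNMT3A1 (0.27 against ΔDNMT3A) and 247, 239, 248 and 244 CPM in the libraries labelled DNMT3A2 (-0.28 against ΔDNMT3A). MACF1, a cytoskeletal linker that associates with the AXIN complex, was at 154, 161, 154 and 165 CPM in WT and at 206, 214, 169 and 202 in ΔDNMT3A, all above WT although replicate 3 was close to it (0.33, SE 0.0464, adjusted p = 1.41e-06, edgeR). The kinase gene ABL2 did not pass the threshold in any human comparison, with log2 fold changes of at most 0.07. Without ΔDNMT3A replicate 3 it passed against WT (0.09, adjusted p = 0.0413, edgeR), and without DNMT3A1 replicate 4 it passed in DNMT3A1 against WT (0.13, adjusted p = 0.0191, edgeR).

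A further 84 genes of the pathway, listed by role, were counted for context. In ΔDNMT3A against WT 56 of them were tested, of which 24 rose and 21 fell, with a median log2 fold change of 0.00. Over all genes tested 31.2% rose and 31.0% fell. The largest changes among those with a mean of at least 1 CPM were in MMP7, a protease and known target, from 0.372 ± 0.0535 CPM in WT to 3.52 ± 0.459 in ΔDNMT3A (log2 fold change 3.25), in WNT5A, a ligand that acts largely without β-catenin, from 5.82 ± 0.578 to 19.9 ± 1.43 (1.79), in PYGO1, a nuclear coactivator, from 17.6 ± 0.413 to 2.99 ± 0.152 (-2.55), and in KREMEN2, a DKK receptor, from 4.05 ± 0.225 to 1.49 ± 0.19 (-1.44; SD, n = 4 throughout). Against ΔDNMT3A, 22 of 59 rose and 20 fell in DNMT3A1 (median 0.01), and 29 of 57 rose and 18 fell in the libraries labelled DNMT3A2 (median 0.14). The shares over all genes were 30.4% higher and 30.3% lower in DNMT3A1, and 33.8% and 34.1% in the libraries labelled DNMT3A2. WLS, which carries Wnt proteins to the cell surface, rose in both, by 1.69 and 1.63. PROX1, a target in colorectal cancer, was highest in the libraries labelled DNMT3A2, at 16.1 ± 0.532 CPM (SD, n = 4), compared with 1.85 ± 0.0565 in DNMT3A1 (n = 3), 0.427 ± 0.174 in ΔDNMT3A and 1.34 ± 0.178 in WT (n = 4 each). CLDN2, a claudin gene, fell in both isoform lines against ΔDNMT3A (-1.58 and -2.40).

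In the mouse colonic epithelium, no Wnt pathway gene passed the threshold between Dnmt3a ΔIEC and Dnmt3a fl/fl by edgeR, of 45 tested, and 7 had an unadjusted p under 0.05. By DESeq2, the tool that the study used, 4 passed, where 352 of 15904 passed over all genes. Over all 14626 genes 0.691% passed the edgeR threshold, and 2058 had an unadjusted p under 0.05, a background at which 0 of 45 is not set apart from all genes. The median log2 fold change was -0.06, against 0.00 over all genes. Dnmt3a itself was at 93.6 ± 7.79 CPM in Dnmt3a fl/fl and 46.2 ± 3.08 in Dnmt3a ΔIEC (SD, n = 4 each). In bulk RNA, fewer cells of a type and less RNA per cell cannot be told apart.

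The marker check of the mouse cells gave 8 epithelial genes at 11500 to 13700 CPM in Dnmt3a fl/fl and 12200 to 16600 in Dnmt3a ΔIEC. The 10 immune genes summed to 2.75 to 4.64 and 5.72 to 7.11 CPM, and the 10 genes of stroma, muscle and endothelium to 13.8 to 22.0 and 13.2 to 16.4 CPM. Of the remaining epithelial lists, 6 genes of the crypt base and of division summed to 656 to 1160 and 522 to 967 CPM, 5 of surface colonocytes to 10500 to 13600 and 9000 to 14800 CPM, and 4 of goblet cells to 21500 to 31800 and 15400 to 27800 CPM. None of the genes on these lists passed the threshold. Both tuft cell genes, Dclk1 and Trpm5, did, and summed to 29.8 to 38.8 CPM in Dnmt3a fl/fl and 100 to 124 in Dnmt3a ΔIEC. The part of these shifts in the values below was not tested. Dnmt3a fl/fl replicate 2 stood apart, with a chi-square over degrees of freedom of 47.71 to 80.86 to the other 3 libraries of its group, which differed from one another by 9.98 to 29.59, compared with 12.57 to 51.91 within Dnmt3a ΔIEC.

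Levels of the central genes overlapped between the mouse groups. Ctnnb1 was at 1070, 1120, 1010 and 1130 CPM in Dnmt3a fl/fl and at 956, 1060, 1170 and 1310 in Dnmt3a ΔIEC (log2 fold change 0.04, interval of 2 SE from -0.21 to 0.30). Apc was at 262, 317, 301 and 288 CPM and at 238, 242, 281 and 296 CPM (-0.15, from -0.37 to 0.06). The stem cell gene Lgr5 was at 7.58, 9.39, 10.2 and 8.24 CPM in Dnmt3a fl/fl and at 13.7, 12.1, 7.85 and 6.77 in Dnmt3a ΔIEC, where replicates 1 and 2 lay above all controls and replicate 4 below them (0.19, from -0.26 to 0.63, adjusted p = 0.748, edgeR). The log2 fold change of LGR5 in Caco-2 (-2.42) lies outside that interval.

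Among the feedback and target genes, Axin2 was at 36.0, 30, 35.3 and 30.6 CPM in Dnmt3a fl/fl and at 33.8, 31.9, 26.7 and 22.1 in Dnmt3a ΔIEC (log2 fold change -0.21, from -0.49 to 0.07). Ccnd1 was at 31.7, 25.4, 32.3 and 31.9 CPM and at 33.8, 38, 26.5 and 31.0 CPM (0.09, from -0.17 to 0.34). Both pairs of groups overlapped. Nkd1, which changed most among the inhibitors in Caco-2, was low in the mouse cells, with 10 to 47 counts per library and an interval from -0.69 to 0.79 that leaves its difference undetermined. Lef1, Notum, Sp5, Dkk1 and Dkk4 were too low to test, and Dkk1 had 0 counts in all 8 libraries. A count of 0 in a single library allows an expected count of up to about 3, and the 8 libraries together allow less.

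The lowest adjusted p among the mouse genes was that of Abl2, which with Macf1, Usp34, Amer1 and Fzd3 was singled out after the values were seen, because an alternative analysis called each of them. Abl2 (chromosome 1, 156558786 to 156649568, GRCm38) was at 68.1, 86.0, 72.9 and 60.3 CPM in Dnmt3a fl/fl and at 51.9, 49, 43.6 and 48.3 in Dnmt3a ΔIEC, without overlap (log2 fold change -0.58, SE 0.115, adjusted p = 0.0569, edgeR). Macf1, at 620, 800, 682 and 603 CPM and at 510, 453, 467 and 565 CPM, did not overlap either (-0.45, SE 0.127, adjusted p = 0.181, edgeR). Nor did Usp34, at 240, 279, 302 and 252 CPM and at 227, 206, 211 and 206 CPM (-0.34, SE 0.0989, adjusted p = 0.182, edgeR). All 3 other regulators were at lower values in every Dnmt3a ΔIEC library than in any control, without passing the threshold. Over the 45 genes, 6 had groups that did not overlap, these 3 with Amer1, Fzd4 (-0.43) and Ephb3 (-0.41), and all 6 were lower in Dnmt3a ΔIEC. Of all 14626 mouse genes tested, the groups did not overlap for 10.2%, with 6.43% higher and 3.75% lower in Dnmt3a ΔIEC. Members and roles were chosen with earlier results of these data known. Setting their counts beside these shares is therefore description and not a test.

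Amer1 was at 16.4, 16.1, 17.3 and 16.3 CPM in Dnmt3a fl/fl and at 14.4, 12.7, 11.7 and 12.2 in Dnmt3a ΔIEC (log2 fold change -0.38, SE 0.104, adjusted p = 0.174, edgeR). Fzd3 was at 4.09, 0.934, 4.25 and 4.79 CPM and at 2.54, 2.64, 2.47 and 2.32 CPM, so the control library that stood apart was below, and the other 3 above, all Dnmt3a ΔIEC libraries (-0.51, adjusted p = 0.572, edgeR). Without Dnmt3a fl/fl replicate 2, Fzd3 fell by 0.82 (SE 0.156, adjusted p = 0.0428, edgeR) and Abl2 by 0.48 (SE 0.0947, adjusted p = 0.0483, edgeR), the 2 genes of the 45 called in that setting. DESeq2 called Abl2 (-0.59, adjusted p = 0.00144), Usp34 (-0.35, adjusted p = 0.032), Macf1 (-0.45, adjusted p = 0.0332) and Amer1 (-0.38, adjusted p = 0.0356) lower. The mouse counts ignored strand, so reads of overlapping or antisense genes cannot be told apart from those of the named gene. Of the further pathway genes 46 were tested in the mouse and none passed the threshold (median -0.02).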

How the data were processed

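RNA was sequenced as stranded total RNA libraries of Caco-2 cells and of purified mouse colonic epithelial cells. The authors trimmed reads with Trim Galore 0.4.4, aligned them with STAR 2.5.2b to GRCh38 or GRCm38 and deposited raw read counts per gene from featureCounts (1.5.2 per the submitters' processing notes). Per the file headers, human reads were counted on the reverse strand with featureCounts 1.5.2, and mouse reads without strand with featureCounts 1.6.4.

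The 55 members were matched by symbol. Members, roles and other lists were chosen with earlier results of these data known. Counts were analysed with edgeR 4.0.16 in R 4.3.3 (filterByExpr, TMM, glmQLFit and glmQLFTest, Benjamini-Hochberg adjustment), with 2 groups in each fit and a threshold of 0.05. Standard errors are the absolute log2 fold change divided by the square root of F. FPKM used the deposited gene lengths. Scripts were tested on simulated data. Alternatives were DESeq2 1.42.0, RLE library sizes, no filter on low counts, removal of a gene length trend, an absolute log2 fold change of at least 0.5, leaving out each library, the replicate number as a block, all Caco-2 groups in one fit, and sequencing lane as a factor. Within each role the text names the genes with the largest changes past the threshold and a mean of at least 1 CPM, with CTNNB1, APC, AXIN2, TCF7L2, LEF1, LGR5, ASCL2, MYC, CCND1, RNF43 and ZNRF3 in every case. For the mouse these are members past the threshold and Ctnnb1, Axin2, Lgr5, Ccnd1 and Apc. Other members are given by role and were chosen after their values were seen.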

Additional observations from a re-analysis of the deposited data

Results flagged for a closer look

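In 12 of 245 groups of 4 libraries tested, 1 library lay apart from the other 3 in the level of a Wnt pathway gene. The gap was judged against the range of the group, so some gaps were small in CPM. For independent groups chance gives about 1 in 20. Genes of the same library are not independent, so the share found here cannot be judged against that rate. In Caco-2 these were PORCN in DNMT3A2 replicate 1 (2.33 CPM, others 2.16 to 2.17), FZD6 in ΔDNMT3A replicate 2 (33.0, others 29.4 to 29.8), AXIN1 in ΔDNMT3A replicate 4 (58.5, others 63.1 to 63.8), GSK3A in ΔDNMT3A replicate 3 (15.7, others 13.3 to 13.7), TCF7 in WT replicate 1 (17.7, others 19.4 to 19.8) and AXIN2 in DNMT3A2 replicate 3 (93.8, others 92.3 to 92.5). In the mouse, Dnmt3a fl/fl replicate 2 was far from its group for Lgr4 (423 CPM, others 321 to 332), Dvl1 (81.5, others 86.9 to 87.6), Ccnd1 (25.4, others 31.7 to 32.3) and Ephb3 (82.1, others 54.6 to 58.6). In Dnmt3a ΔIEC, Tle4 was high in replicate 4 (79.9 CPM, others 61.6 to 64.2) and Dact2 in replicate 3 (73.2 CPM, others 50.7 to 54.4).

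For 14 of the 54 genes the isoform lines passed the threshold against ΔDNMT3A in opposite directions, and the isoform lines also differed when compared directly by edgeR, which was so for 16.4% of the 15986 genes tested in these 3 comparisons. The direct log2 fold changes of DNMT3A1 against the libraries labelled DNMT3A2 were negative for WNT6 (-3.78), NKD1 (-3.39), LEF1 (-1.61), AXIN2 (-1.35), CCND1 (-0.98), FZD2 (-0.88), AMER1 (-0.80), MYC (-0.63), TCF7 (-0.55) and CSNK1A1 (-0.43). They were positive for LGR4 (1.15), PORCN (0.78), FZD5 (0.55) and USP34 (0.55). Both isoform lines were compared with the same ΔDNMT3A libraries.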

How the results depend on the processing

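No value of a Wnt pathway gene changed sign where it was past the threshold. With an absolute log2 fold change of at least 0.5 required, the counts were 17 in ΔDNMT3A against WT (5 higher, 12 lower), 17 in DNMT3A1 against ΔDNMT3A (14 higher, 3 lower), 26 in the libraries labelled DNMT3A2 against ΔDNMT3A (22 higher, 4 lower), 13 in DNMT3A1 against WT (8 higher, 5 lower), 19 in the libraries labelled DNMT3A2 against WT (15 higher, 4 lower), and 25 in DNMT3A1 against the libraries labelled DNMT3A2 (9 higher, 16 lower). The added requirement can only reduce a count. No share over all genes was taken at this cutoff, so these counts and their directions have no background here. Leaving out single libraries gave 45 to 47, 40 to 43, 42 to 44, 38 to 42, 42 to 46 and 36 to 39 genes in the 6 human comparisons.

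In the mouse, the count of 0 became 4 with DESeq2 and 1 without a filter, all lower, and ranged from 0 to 2 when single libraries were left out (2 without Dnmt3a fl/fl replicate 2 and 1 without replicate 4). Over all mouse genes DESeq2 called 352 against 101 by edgeR, of which 67.3% against 87.1% were higher, and 45 to 126 were called without single libraries, with 70.6% higher without Dnmt3a fl/fl replicate 2. The cause was not tested.

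With the replicate number as a block, 46, 43, 44, 41, 43 and 37 genes passed in the 6 human comparisons. Libraries with the same number did not deviate together throughout (correlations of 0.214, 0.239, 0.0837 and -0.00867 for ΔDNMT3A against WT), so the number was not taken to pair them, although such libraries also shared a sequencing lane. With lane as a factor, 46, 45, 44, 40, 45 and 37 genes passed. Mouse libraries carry no replicate number that could pair them. WNT6 in ΔDNMT3A (adjusted p = 0.0681) and FZD2 (0.0716), PORCN (0.13) and TCF7L2 (0.0865) in DNMT3A1 against ΔDNMT3A were not past the threshold with DESeq2, nor was SP5 in DNMT3A1 against WT (0.0524). RNF43 passed in DNMT3A1 against ΔDNMT3A without a length trend (0.0202) or in one fit of all groups (0.0425) by edgeR. Genes of few counts, such as WNT6, FZD9 and mouse Nkd1, have the widest errors.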
